A study of Mus musculus with 2 samples.

Results

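Cells with macrophage genes were carried through a sort for satellite cells, the stem cells of skeletal muscle, and are described here as 132 cells of 3287. Not all had a plain macrophage profile: 7 also held myogenic transcripts, 6 in each library had no C1q UMI, and a few carried dendritic cell genes. A barcode was a member when Lyz2, C1qa, C1qb and Tyrobp together made up at least 10 of every 10000 of its UMIs (unique molecular identifiers, 1 per captured transcript). Only barcodes with 1000 or more UMIs, 500 or more detected genes and a mitochondrial share of 10% or less were considered. The GFP+ library gave 75 members of 604 kept cells (12.4%, exact binomial 95% interval 9.89 to 15.3) and the GFP- library 57 of 2683 (2.12%, 1.61 to 2.74). The cells came from the biceps and the recto femoris of mice of genotype Pax3GFP/+, in which GFP reports the Pax3 locus. They were taken 5 days after injury and sorted into GFP+ (PAX3+) and GFP- (PAX3-) satellite cells. Both groups carried the Pax3GFP allele, although the genotype label reads wild-type, and the labels do not state the number, age or sex of the animals. For each fraction 20000 cells were loaded for 1 droplet library, so no test between fractions was possible. Intervals cover counting error only, and every difference is one between these libraries. The label names all sorted cells satellite cells, and the members went against it.

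Macrophages are phagocytes that enter injured muscle as monocytes or live there between the fibres. They clear dead fibres, first in an inflammatory state and later in one that favours repair, and they secrete factors that act on satellite cells and fibroblasts. They take up debris through scavenger, complement and Fc receptors, degrade it in lysosomes, handle the freed lipid and iron, and present peptides on MHC class II.

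The rule used 4 genes. Lyz2 encodes lysozyme, C1qa and C1qb encode chains of the complement starter C1q, and Tyrobp encodes the DAP12 adaptor of myeloid receptors. C1qa, C1qb and C1qc lie side by side on the minus strand of chromosome 4 (GRCm38/mm10, GENCODE M21): C1qb at 136880129 to 136886187, C1qc at 136889804 to 136893065 and C1qa at 136895917 to 136898803. All 3 were detected in 68 of 75 GFP+ members and 48 of 57 GFP- members, and none of the 3 in 6 members of each library. C1qa, C1qb and C1qc held 36.8%, 39.7% and 23.5% of the C1q UMIs of GFP+ members, and 35.0%, 39.1% and 26.0% of those of GFP- members. The 3 chains thus stood in nearly the same proportions in both libraries. C1qc was not in the rule, so its presence beside the other chains was not fixed by it. The upstream windows of C1qb and C1qc are shown because the 3 genes were detected together. No window was available for C1qa, so it was not searched. Each of the 2 windows holds 1 match, in capitals, to GAGGAA or its reverse complement TTCCTC. These are the core letters of sites for ETS factors such as PU.1, which Spi1 encodes. Both windows are read 5' to 3' on the minus strand from RefSeq sequence of GRCm38.p6, C1qb at chr4:136886201-136886450 and C1qc at chr4:136893066-136893164.
C1qb: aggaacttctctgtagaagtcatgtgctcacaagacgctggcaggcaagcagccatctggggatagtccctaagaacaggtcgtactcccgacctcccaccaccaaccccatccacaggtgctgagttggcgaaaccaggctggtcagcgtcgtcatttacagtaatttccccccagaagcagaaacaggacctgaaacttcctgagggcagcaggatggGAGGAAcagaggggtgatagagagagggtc
C1qc: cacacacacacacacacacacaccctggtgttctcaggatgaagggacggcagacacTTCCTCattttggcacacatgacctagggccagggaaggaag
The matches lie 24 bases before the RefSeq start of C1qb and 187 bases before that of C1qc. Only 99 of the 250 bases before the C1qc start are shown, since the other 151 lie inside the GENCODE gene. Over all RefSeq windows of 250 bases, 23.3% of 32851 hold these letters on either strand, and so do 25.9% of 27025 genes in at least 1 window. Of the 20 genes with the highest ratio of members to other kept cells, 14 matched a window and 7 of these held the letters (Bcl2a1b, C1qb, C1qc, Cd300c2, Fcrls, Itgam and Mrc1). The longer GAGGAAGT, which contains GAGGAA, occurs in 2.44% of windows and 2.79% of genes, and in 2 of the 14 genes. A match describes letters and is no evidence of binding.

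Summed over the members, the whole macrophage marker list was high. All 20 macrophage markers stood at least 2-fold above the other kept cells in both libraries, where 25.9% of the 3608 genes tested in the GFP+ library and 22.9% of the 3745 in the GFP- library did so. Members were chosen by 4 of these genes, so this is a description. Levels are given as CPM, a gene's UMIs summed over the cells of a library and scaled to their total. Lyz2 stood at 14602 CPM in GFP+ and 12331 in GFP- members, against 6.10 and 2.82 in other kept cells. Tyrobp stood at 2586 and 2095, and C1qa at 4247 and 3003. Genes outside the rule showed the same gap. Csf1r, the receptor for the macrophage growth factor CSF1, stood at 589.6 and 499 CPM against 0.370 and 0.183. Adgre1, which encodes the macrophage surface protein F4/80, stood at 409.9 and 487 against 0.277 and 0.0688. Ms4a7, a membrane protein of macrophages, led the ranking at 1808 and 1242 against 0.185 and 0.252. Cybb, the catalytic subunit of the phagocyte oxidase, stood at 629.8 and 571 against 0.0925 and 0.160. The other leading genes included Fcrls, Folr2, Clec4a2, Cd300c2, Ms4a6b and Bcl2a1b.

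**Figure D1:**
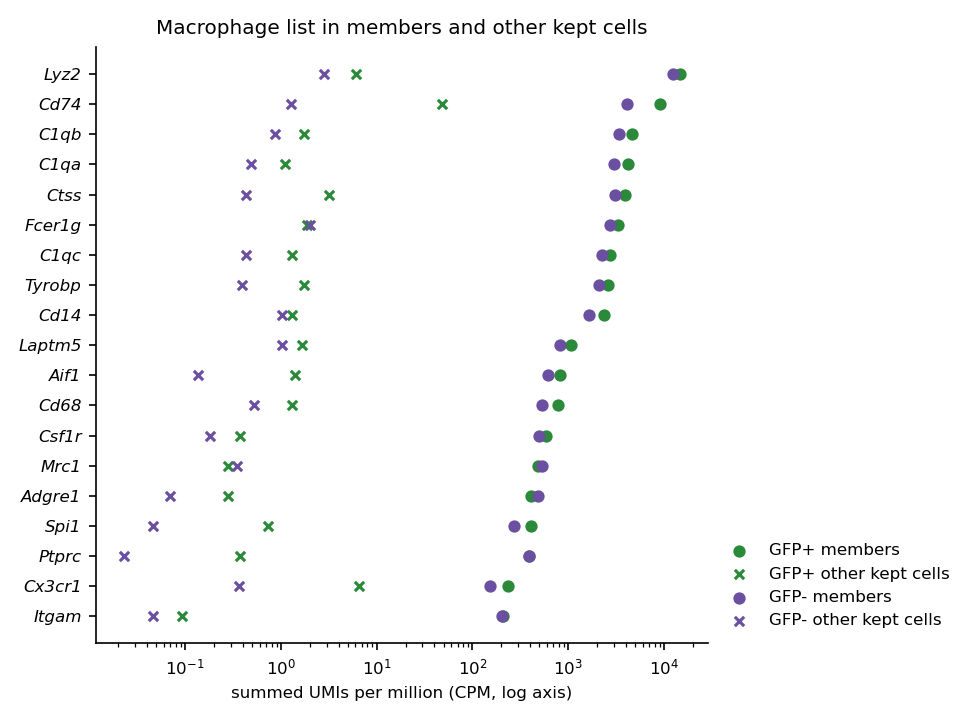
Summed CPM (log axis) of macrophage markers in members (dots) and all other kept cells (crosses) of the GFP+ and GFP- libraries, 1 value per library. In every row the dots lie to the right of the crosses of the same library, and among the markers drawn the distance is smallest for Cx3cr1 in both libraries.

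Most T and NK cell, mast cell and neutrophil genes were at 0 in the members, whereas dendritic cell genes were not. Of 12 T and NK cell genes, 10 had 0 UMIs in both libraries, among them Cd3e, Cd3d and Trac, the defining T cell genes. Of 10 neutrophil genes 6 were at 0 in both (S100a9, Retnlg, Cxcr2, Ly6g, Camp and Ngp), and 6 of 7 mast cell genes. The B cell genes Cd79a and Pax5 were at 0 as well. No member had more than 11.0 UMIs per 10000 of the neutrophil list or 8.82 of the T and NK list, against medians of 544 in GFP+ and 490.4 in GFP- members for the macrophage list. Endothelial genes summed to at most 1.67 per 10000 in any member. The B cell list reached 7.88 per 10000 in a GFP+ and 12.3 in a GFP- member. The dendritic cell list reached 79.3 in a GFP+ and 73.0 in a GFP- member, with medians of 1.12 and 1.59.

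The GFP+ gate did not coincide with expression of the gated gene in these cells. Pax3 had 1 UMI in 1 of 75 GFP+ members (1.33%, exact interval 0.0338 to 7.21) and 2 UMIs in 2 of 57 GFP- members (3.51%, 0.428 to 12.1). In the other kept cells it was detected in 30.8% and 7.01%. The reporter feature of the matrices, whose name joins H2BGFP to TVA and B19G, had 0 UMIs in all members, and with 3 counts over all members of a library as the limit, this allows up to 2.57 CPM in GFP+ and 4.69 CPM in GFP- members. It had 570 UMIs in 285 of the 529 other GFP+ cells (52.7 CPM) and 0 in the other GFP- cells. Empty droplets (barcodes of 1 to 100 UMIs) of the GFP+ library held it at 34.3 CPM. The GFP+ members thus lay below both. Six2, named with PAX3 in the series title, had 0 UMIs in GFP+ and 2 UMIs in GFP- members. The GFP- UMIs of Pax3 and Six2 all lay in the 7 cells with myogenic transcripts described below, and the other 50 GFP- members had 0 of either gene. The labels do not say which part of the reporter sequence was counted.

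Depth and RNA quality differed between the groups compared. GFP+ members held 1168618 UMIs with a median of 13545 per cell, and GFP- members 639044 with a median of 8086. The other kept cells had medians of 19188 and 14788. The median mitochondrial share was 1.16% in GFP+ and 1.79% in GFP- members, against 2.60% and 4.49% in other kept cells. The libraries shared 2 barcodes among kept cells and 0 among members.

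The rule separated members from other cells with few cells near the limit. The summed rule genes had a median of 259 per 10000 in GFP+ members (range 11.3 to 689) and 239 in GFP- members (18.8 to 512). Of the other kept cells, 445 of 529 GFP+ and 2446 of 2626 GFP- cells had no UMI of a rule gene. Just inside the limit stood GFP+ cells at 11.3, 14.2, 18.1 and 23.1 per 10000 and GFP- cells at 18.8 and 20.4. The GFP+ 4 were rich in Cd74, the invariant chain of MHC class II, with 273, 783, 493 and 235 UMIs. Just outside stood a GFP+ cell at 4.63 with 480 Cd74 UMIs, 6 UMIs of the dendritic cell receptor gene Flt3 and 1 of Lyz2. That cell held 480 of the 518 Cd74 UMIs found in GFP+ cells outside the rule. The next GFP+ cell, at 3.31, had 0 Cd74 UMIs, and the GFP- cells just outside, at 9.97 and 8.81, were 1003 and 1135 UMIs deep with 1 rule UMI each. The rule genes also occurred in free RNA, at 40.1 per 10000 in empty droplets of the GFP+ library and 8.93 in those of the GFP- library. Of the GFP+ members 5 lay below that level, and all 5 held 127 or more class II UMIs.

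Before any result on the GFP- members, 7 of them need naming. These 7 cells also held 10.5 to 88.2 UMIs per 10000 of an 11-gene myogenic list, while the median member of either library had 0. The highest GFP+ member had 1.94, and the next GFP- member 8.65. They held 212489 UMIs, 33.3% of those of all GFP- members, at a median of 27998 per cell. Sparc, a matrix protein gene of muscle and stromal cells, showed their weight: it stood at 510.1 CPM in all GFP- members and 18.8 without the 7 cells, against 4.28 in GFP+ members. Of the 145 UMIs of Myog, the differentiation factor of myoblasts, 139 came from 1 of these cells. The 7 were not alike in depth. The shallowest had 1597 UMIs, with 1 UMI each of Myog and Des and 3 of the rule genes. At 18.8 rule UMIs per 10000 it was the GFP- member nearest to the limit, so both its contents rest on few UMIs. Scrublet called 3 kept cells of each library doublets (0.497% and 0.112%), none of them among the 7, and so few calls that doublets were in effect not removed. Values for GFP- members cover all 57 cells unless they are called unmixed, which means the 50 without these 7.

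**Figure D2:**
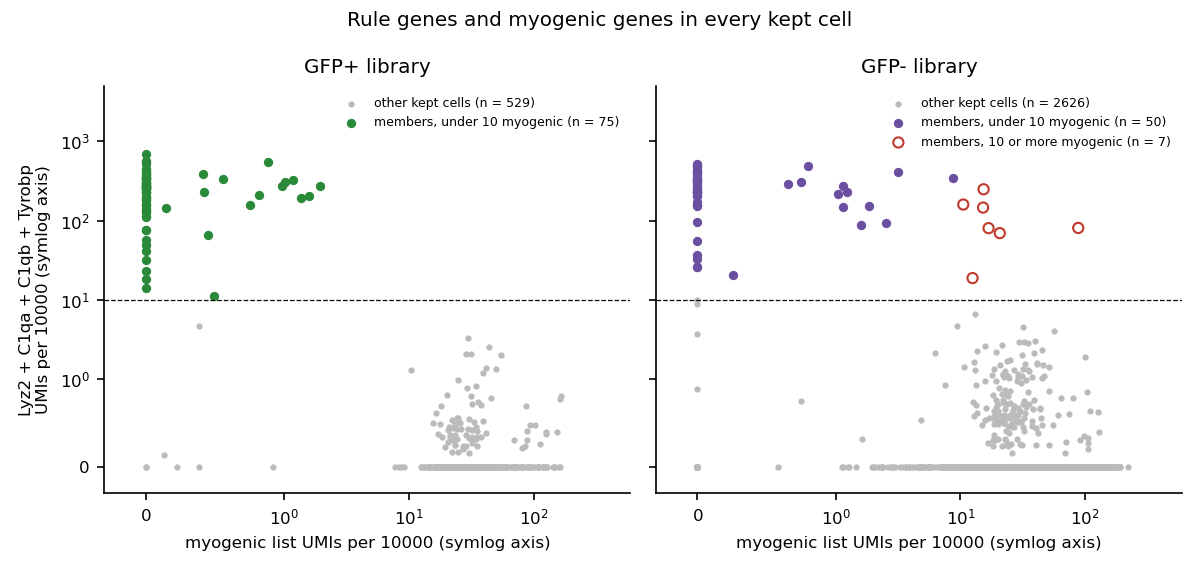
Each point is 1 kept cell of the GFP+ (left) or GFP- (right) library, with UMIs per 10000 of the myogenic list on the x axis and of the 4 rule genes on the y axis (both linear up to 1 and logarithmic above). Members lie above the dashed line at 10, and the 7 open circles in the GFP- panel are members with 10.5 to 88.2 myogenic UMIs per 10000.

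Antigen presentation by MHC class II was uneven among the members. Cd74 stood at 8981 CPM in GFP+ members, 4070.1 in all GFP- members and 6072 in unmixed ones. H2-Aa, H2-Ab1 and H2-Eb1, which encode the chains of the class II dimers, stood at 4044, 4693 and 4769.7 CPM in GFP+ and at 3256, 3416 and 3270.4 in unmixed GFP- members. Single cells ranged from 0 to 1124 UMIs per 10000 of the 9-gene class II list in the GFP+ library (median 206) and from 0 to 913 in the GFP- library (median 30.1). Most members sat at the ends of that range. By limits chosen after the values were seen, 42 of 75 GFP+ members (56.0%, interval 44.1 to 67.5) held at least 100 per 10000, 28 held under 10 and 5 lay between. Of the 50 unmixed GFP- members, 22 held at least 100 (44.0%, 29.99 to 58.7), 18 under 10 and 10 between. Only 2 GFP+ and 4 GFP- members lay close to the upper limit. Median depth was 12751 UMIs at 100 or more and 13372 under 10 in the GFP+ library, and 7268 and 8454 in unmixed GFP- members.

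Members high and low in class II differed in other lists, given as medians over cells of UMIs per 10000. The resident macrophage list stood at 2.46 in class II-high and 13.4 in class II-low GFP+ members, and at 1.23 and 14.8 in unmixed GFP- members. Scavenger and efferocytosis receptors stood at 8.23 and 20.1 in GFP+, and at 7.82 and 23.8 in GFP- members. Lysosomal genes stood at 214 and 299, and at 219 and 376. In these 3 lists the class II-low cells had the higher median in both libraries. The monocyte list ran the other way, at 5.10 and 0.869 in GFP+ and 6.14 and 1.19 in GFP- members. Complement genes hardly varied with the range, at 136 and 147, and at 137 and 151.

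Complement receptors and Fc receptors accompanied C1q. C3ar1 and C5ar1, which encode the receptors for the complement fragments C3a and C5a, stood at 323 and 201 CPM in GFP+ members and at 312 and 166 in unmixed GFP- members. Itgam and Itgb2, the subunits of complement receptor 3, stood at 206 and 211 in GFP+ and 277 and 138 in unmixed GFP- members. Fcer1g, the common signalling chain of Fc receptors, reached 3281 CPM in GFP+ members and was detected in 73 of 75. The Fc receptor genes Fcgr2b and Fcgr3 stood at 375 and 335 CPM. Trem2, a lipid-sensing receptor that signals through DAP12, stood at 877 CPM in GFP+, 765 in all GFP- and 973 in unmixed GFP- members. All 11 matched Fc receptor and adaptor genes lay at least 2-fold above other kept cells in both libraries.

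Uptake receptors differed in how many members held them. Mrc1, the mannose receptor, stood at 479 CPM in GFP+ and 530.5 in GFP- members, and was detected in 58 of 75 and 41 of 57 cells. Cd36, a receptor for oxidised lipid and dying cells, stood at 308 and 183, Stab1, a scavenger receptor, at 288 and 209.7, and Msr1, the class A scavenger receptor, at 114 and 73.5 CPM. Of the TAM receptors for dying cells, Axl stood at 111 and 64.2 CPM and Mertk at 42.8 and 50.1, while Tyro3 had 0 UMIs. Stab1 was detected in 52 GFP+ and 40 GFP- members, Cd36 in 32 and 20, Msr1 in 39 and 23, Axl in 35 and 16, and Mertk in 34 and 20. Mertk was seldom seen in other kept cells (0.277 and 0.917 CPM), whereas Axl stood there at 46.9 and 59.5. Their ligand gene Gas6 stood at 145 and 166 CPM in members.

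Genes of digestion and lipid handling stood well above the other kept cells. The 20 lysosomal genes had a median of 271 UMIs per 10000 in GFP+ members and 272 in GFP- members, against 41.5 and 43.9 in other kept cells. Ctsb, Ctss and Ctsd, which encode cathepsin proteases, stood at 5387, 3938 and 3034 CPM in GFP+ members, and Psap, the saposin precursor, at 4506. In unmixed GFP- members the same 4 genes stood at 5570.2, 3974, 3716 and 5038. Apoe, the lipid carrier secreted by macrophages, stood at 20980.3 CPM in GFP+, 18852 in all GFP- and 23989.9 in unmixed GFP- members, against 288 and 164 in other kept cells. Fabp5, a fatty acid carrier, stood at 2288 CPM in GFP+ members but at only 3.63 UMIs per 10000 in the median cell, so it was unevenly spread. Spp1, which encodes osteopontin, did not set the members apart by summed CPM: at 1725 and 1901 CPM it lay close to the 1382 and 1943 of other kept cells. With cells thinned to 3000 UMIs, 56.9% (44.7 to 68.6) of GFP+ members held it against 34.6% (30.5 to 38.9) of other GFP+ cells. In the GFP- library the shares were 63.5% (49.0 to 76.4) and 55.7% (53.7 to 57.6), with overlapping intervals.

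Ferritin genes were high and the iron exporter hardly seen. Fth1 and Ftl1, the ferritin subunits, stood at 18205 and 13370.5 CPM in GFP+ members and at 15210.2 and 8794 in GFP- members, and both were detected in every member. Other kept cells held them at 2048 and 859 CPM in the GFP+ library. Slc40a1, the iron exporter ferroportin, had 2 UMIs in GFP+ and 15 in GFP- members, and 9 of the 15 lay in the 7 cells with myogenic UMIs. Hmox1, which degrades haem, stood at 245 CPM in GFP+, 365 in all GFP- and 467 in unmixed GFP- members. Cd163, the receptor for haemoglobin bound to haptoglobin, had 5 and 9 UMIs.

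Inflammatory and repair-associated genes occurred in the same libraries. Il1b, which encodes interleukin-1 beta, stood at 1815 CPM in GFP+, 1200.2 in all GFP- and 1690.3 in unmixed GFP- members. Tnf stood at 77.0 and 48.5 CPM, and Ptgs2, the inducible cyclooxygenase, at 290.1 and 296. Nos2 and Arg1, the arginine enzymes often used to mark inflammatory and alternative activation, both had 0 UMIs in all members, which allows up to 2.57 CPM in GFP+ and 4.69 in GFP- members. Igf1, a growth factor for muscle, stood at 208 and 199 CPM, Gdf15, a stress-induced factor that macrophages of regenerating muscle secrete, at 448 and 410.0, and Tgfb1 at 289 and 202. Osm, which encodes oncostatin M, stood at 131 and 124 CPM against 0.185 and 0.0458 in other kept cells. Gdf3, a further factor acting on myoblasts, was detected in 6 GFP+ and 2 GFP- members.

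Chemokines varied widely from cell to cell. The 18-gene list ranged from 0 to 1003 UMIs per 10000 in GFP+ members (median 110) and from 5.21 to 978 in GFP- members (median 55.2). Pf4, platelet factor 4, stood at 1890.3 and 1656 CPM and was detected in 60 and 41 members. The monocyte-attracting Ccl2, Ccl7 and Ccl8 stood at 901, 813 and 1044 CPM in GFP+ and at 937, 989 and 967 in GFP- members. Fewer members showed these 3 than showed Pf4, with Ccl7 in 35 of 75 and 23 of 57. Among receptors, Ccr2, which brings monocytes to sites of injury, was detected in 38 and 23 members, and Cx3cr1, the fractalkine receptor, in 43 and 31. Cxcr4, the receptor for CXCL12, stood at 367 and 266 CPM.

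The transcription factors of the lineage were present. Spi1 stood at 404 CPM in GFP+ and 274 in GFP- members, and was detected in 73 and 50 of them, against 0.740 and 0.0458 CPM in other kept cells. Maf, a factor of macrophage maturation, stood at 314 CPM in GFP+ members. Cebpb, a factor of inflammatory and repair genes, stood at 1871 and 1662 CPM, above the 560.4 and 318 of other kept cells. Immediate-early genes, which enzymatic dissociation can induce, were expressed in members too: Fos stood at 1112 and 858 CPM and Junb at 1849 and 1745. The part of dissociation in any value here was not tested.

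Markers of origin and of resident macrophages were unevenly spread. Folr2, a folate receptor of resident macrophages, had UMIs in 45 of 75 GFP+ members and in 35 of 57 GFP- members, at 378 and 339.6 CPM. F13a1, a clotting factor subunit made by macrophages, was detected in 32 and 26, and Cbr2, a carbonyl reductase, in 34 and 14. Lyve1 and Timd4, 2 further markers of resident macrophages, were detected in 1 and 3 GFP+ and 4 and 1 GFP- members. The monocyte gene Ly6c2 was detected in 13 and 10 members, and Plac8 in 24 and 22. Dendritic cell genes ranged from common to rare. Clec10a, a lectin gene of dendritic cells and macrophages, had UMIs in 34 GFP+ and 27 GFP- members, Itgax, which encodes CD11c, in 19 and 10, and the transcription factor gene Batf3 in 15 and 8. Flt3 had UMIs in 4 and 3 members, Cd209a in 1 and 2, and Ccr7, the receptor of migrating dendritic cells, in 2 and 2.

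**Figure D3:**
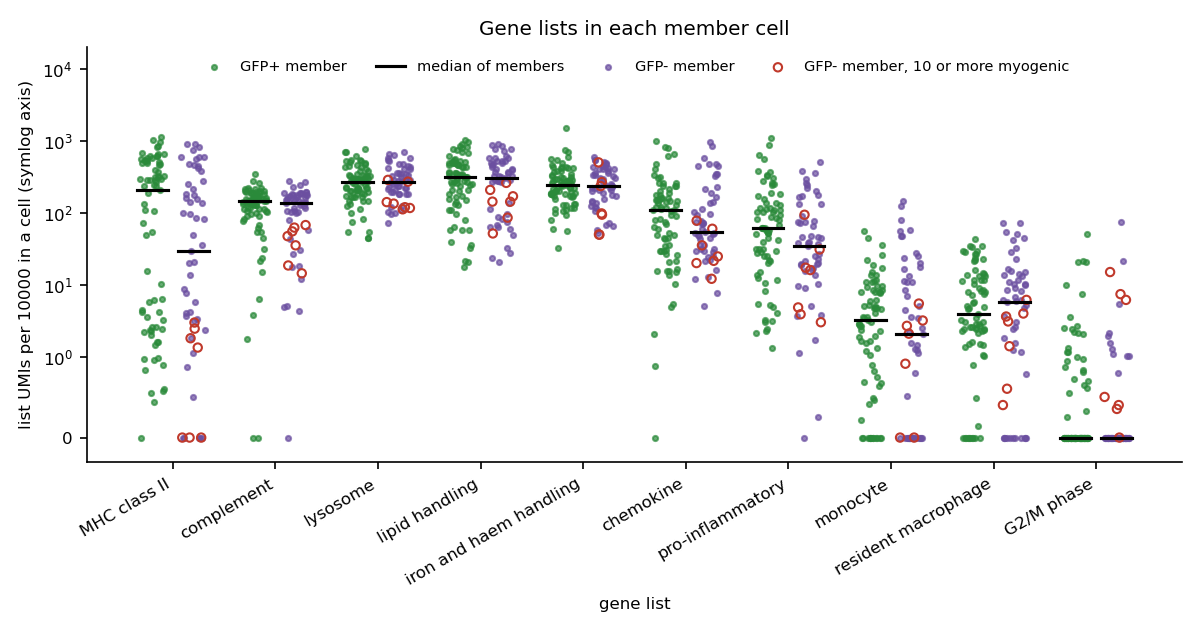
UMIs per 10000 of 10 gene lists in each member (linear up to 1 and logarithmic above), for 75 GFP+ and 57 GFP- cells, with black bars at the median and open circles for the 7 GFP- members of 10 or more myogenic UMIs per 10000. Class II values lie mostly in a high and a low band, with 5 GFP+ and 10 GFP- members between 10 and 100. Lysosomal and iron genes stay in 1 band.

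Clustering the 132 members alone gave 5 sub-clusters, described by number because their leading genes were the basis of the grouping. Sub-cluster 0 (45 cells, 28 GFP+ and 17 GFP-) was led by Ly6c2, Plbd1 and H2-Eb1, and held Cd74 at 19168 CPM and Ccr2 at 553.7. Sub-cluster 1 (33 cells, 20 and 13) was led by Syngr1, Itgax and Gpnmb, with Fabp5 at 4161 CPM and Ctsd at 5993. Sub-cluster 2 (31 cells, 18 and 13) was led by Ednrb, Ccl2 and Ccl7, with Mrc1 at 1238 CPM and F13a1 at 592.5. Sub-cluster 3 (17 cells, 9 and 8) was led by the mitotic genes Ccnb2, Cenpe and Racgap1. These had UMIs in only 7, 6 and 7 of its 17 cells. Sub-cluster 4 held 6 of the 7 GFP- cells with myogenic UMIs and was led by Cdkn1c, Islr and Igfbp5. Each of sub-clusters 0 to 3 held cells of both libraries. C1qa was present in all 5, from 1413 CPM in sub-cluster 4 to 5712 in sub-cluster 2. Il1b and Cxcl2 were highest in different places, Il1b in sub-cluster 0 (3805 CPM) and Cxcl2 in sub-cluster 2 (8764 CPM). At a Leiden resolution of 1.0 in place of 0.6 there were 7 sub-clusters.

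**Figure D4:**
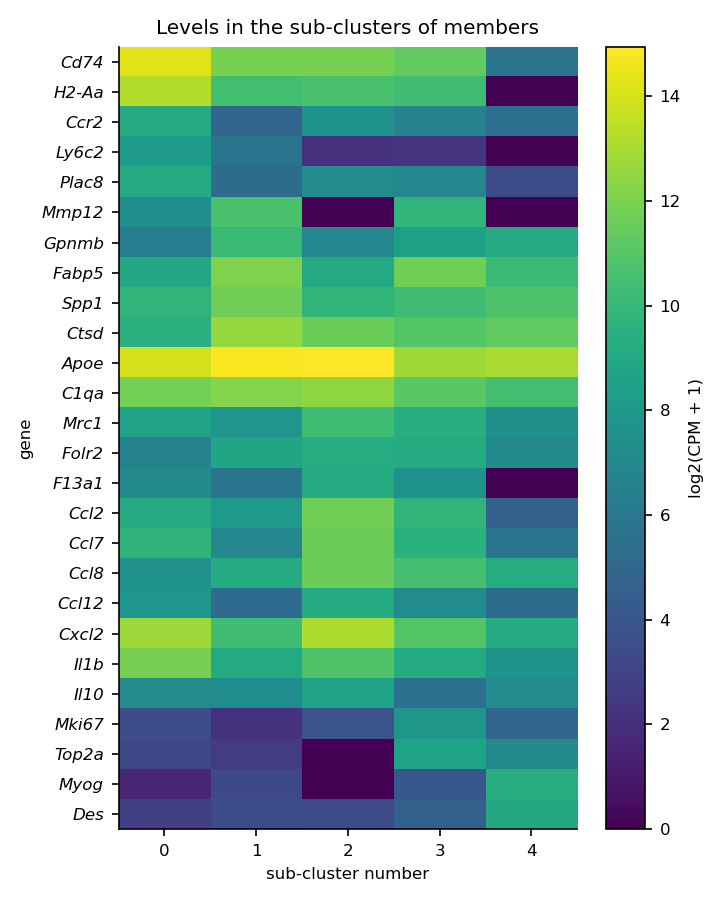
Levels as log2(CPM + 1) of 26 genes in the 5 sub-clusters of the members, both libraries summed. Cd74 and H2-Aa are highest in sub-cluster 0, Gpnmb and Fabp5 in sub-cluster 1, Ccl2, Ccl7 and Mrc1 in sub-cluster 2, Mki67 and Top2a in sub-cluster 3, and Myog and Des in sub-cluster 4.

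Mitotic genes were detected in few members. Each cell was thinned to 3000 UMIs, and 3 GFP+ and 5 GFP- members too shallow for this were set aside. In the remainder Mki67 was detected in 4.17% of 72 (0.868 to 11.7) GFP+ members and 1.92% of 52 (0.0487 to 10.3) GFP- members. Without thinning the shares were 17.3% and 12.3%. In other kept cells the thinned shares were 4.30% of 512 (2.71 to 6.43) and 9.69% of 2539 (8.57 to 10.9), with overlapping intervals in both libraries. The median member had 0 UMIs of the 12-gene G2/M list in both libraries. A single GFP- cell of 39135 UMIs held 70 of the 83 GFP- UMIs of Ube2c, 35 of the 42 of Ccnb2 and 43 of the 73 of Birc5. The same cell held 49 of the 52 UMIs of the protease gene Ctsk, and only 1 each of Cd74 and Lyz2.

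Single cells also carried other genes. Il12b, a subunit of interleukin-12, had 203 UMIs in 1 GFP+ cell and 0 in all other members, and the same cell held 146 of the 154 GFP+ UMIs of Ccr7. That cell stood nearest to the limit of the rule, at 11.3 rule UMIs per 10000, with 1 UMI of Lyz2 and 0 of C1qa. Cd209a, a lectin gene of monocyte-derived dendritic cells, had 38 UMIs in 1 GFP+ cell and 29 in 1 GFP- cell, both with 0 UMIs of C1qa. For the 6 members of each library with no UMI of any C1q gene, membership rested on Lyz2 and Tyrobp alone. Mmp12, the macrophage elastase, had 1182 UMIs in GFP+ members, of which 850 came from 1 cell of 68514 UMIs that also held all 22 UMIs of Retnla in that library. In the GFP- library all 24 Mmp12 UMIs came from 1 cell. Lyz1, the lysozyme gene of intestine next to Lyz2, had 166 UMIs in GFP+ members, 114 of them in 1 cell, and reads shared with Lyz2 cannot be told apart in these counts. Hist1h2ae and Hist1h2ap, replication-dependent histone genes, had 151 and 176 UMIs in GFP+ members, 79 and 80 of them in 1 cell.

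GFP+ members were then set against GFP- members, counting a gene when it reached 50 CPM in either library and its ratio was 2 or more, or 0.5 or less (the size rule). Over all members 88 of 3169 genes (2.78%) were higher in GFP+ and 236 (7.45%) lower, 10.2% in all. Without the 7 cells 62 of 2983 (2.08%) were higher and 117 (3.92%) lower, and 44 of the higher and 53 of the lower genes were on both lists. Of the 236 lower genes, 152 stood at least 2-fold higher in other GFP- cells than in unmixed GFP- members. The lowest ratios over all members belonged to such genes: Cdkn1c, which encodes a cell cycle inhibitor, stood at 2.57 CPM in GFP+, 563 in all GFP- and 4.69 in unmixed GFP- members. Titin, the giant sarcomere protein gene Ttn, stood at 0.856, 135 and 11.7. The median log2 ratio of all tested genes was -0.12. Scaling by edgeR's TMM factors in place of the totals moved it to 0.15, with 177 genes higher and 153 lower, and with the higher genes at 53.6% of those called in place of 27.2%.

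The neutrophil-attracting chemokine genes Cxcl1 and Cxcl2, and Il10, had a higher summed CPM in the GFP+ members with and without the 7 cells. Cxcl3, of the same kind, did not. Cxcl2 stood at 5269 CPM in GFP+, 1876 in all GFP- and 2520.2 in unmixed GFP- members, a ratio of 2.81 and 2.09 (interval of the second 1.96 to 2.23). Weighting each unmixed cell equally gave 1.85, under the size rule. Cxcl1 stood at 1062, 372 and 419.6 CPM, with ratios of 2.85 and 2.53. Cxcl3 stood at 43.6, 82.9 and 124 CPM, with ratios of 0.526 and 0.351. Of its 53 GFP- UMIs, 32 came from 1 unmixed cell of 8971 UMIs, so these ratios rest largely on that cell. Other kept cells held Cxcl1 at 107 and 98.8. Il10, which encodes an anti-inflammatory cytokine, stood at 218, 95.5 and 70.3 CPM, with ratios of 2.29 and 3.10, and was detected in 24 of 75 and 17 of 57 cells. After thinning, the share of cells with Il10 was 18.1% of 72 (9.98 to 28.9) and 15.4% of 52 (6.88 to 28.1), with overlapping intervals. Csf2ra, a subunit of the receptor for GM-CSF, stood at 151, 48.5 and 68.0 CPM (ratios 3.10 and 2.22). Tnfaip2, a gene induced by tumour necrosis factor, stood at 323, 106 and 98.5.

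Some monocyte and interferon genes were lower in the GFP+ members by summed CPM. Plac8 stood at 142 CPM in GFP+, 321 in all GFP- and 476 in unmixed GFP- members, with ratios of 0.443 and 0.298. Chil3, a chitinase-like protein gene of monocytes and activated macrophages, had 32 and 35 UMIs and a ratio of 0.334 in unmixed cells, with 21 of the GFP- UMIs in 1 cell. With TMM factors over all members the ratios were 0.520 for Plac8 and 0.587 for Chil3, outside the size rule. Over the 4 of 10 monocyte genes tested in unmixed cells the median log2 ratio was -1.26, with 2 lower and 0 higher, against -0.13 and 3.92% lower over all genes. The median cell went the other way over all members, with 3.27 UMIs per 10000 of the monocyte list in GFP+ and 2.13 in GFP- members. Of the 176 GFP- UMIs of Ccl12, 68 lay in 1 cell of 9679 UMIs. The gene stood at 148, 275 and 394 CPM, past the size rule only without the 7 cells (0.376). Ifit2, an interferon-induced gene, stood at 53.9, 79.8 and 115 CPM, and was likewise past the rule only without the 7 cells (0.469). Over the 10 interferon-stimulated genes tested in unmixed cells 0 were higher, at a median log2 ratio of -0.51. With TMM factors over all members that median was -0.09 in place of -0.32. Isg15, another gene of the list, was detected after thinning in 44.4% of 72 GFP+ and 37.0% of 46 unmixed GFP- members, with overlapping intervals.

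Class II depended on the 7 cells. Over all members 4 of the 6 class II genes tested (Cd74, H2-Ab1, H2-Eb1 and H2-DMb1) were at least 2-fold higher in GFP+, against 2.78% of all genes, and the median log2 ratio was 1.06. Without the 7 cells 0 of 6 were, against 2.08% of all genes, and the median was 0.50. Cd74 moved from a ratio of 2.21 to 1.48 (1.42 to 1.54). After thinning, Cd74 was detected in 70.8% of 72 (58.9 to 81.0) GFP+ members, 61.5% of 52 (47.0 to 74.7) GFP- members and 67.4% of 46 (52.0 to 80.5) unmixed GFP- members. Without thinning 82.7% of GFP+ and 75.4% of GFP- members had a Cd74 UMI.

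Macrophage markers and lysosomal genes were compared in the same way. In unmixed cells 0 of 20 macrophage markers and 0 of 20 lysosomal genes passed the size rule, with median log2 ratios of -0.01 and -0.06. Over all genes 6% passed either way, so a count of 0 in 20 is near the background. Over all members the medians were 0.33 and 0.22, and Cd74 of the first list and Ctsl of the second (ratio 2.02) were higher in GFP+ members. Lipid handling (14 genes tested), Fc receptors and adaptors (11 genes) and iron handling (8 genes) likewise had 0 genes past the rule in unmixed cells. Over all members the lipid list had Fabp4 (ratio 2.48) and Lgals3 (2.23) higher in GFP+. The sums of Fabp4 and Ctsl rested largely on single cells. A GFP+ cell of 44577 UMIs held 126 of the 163 GFP+ UMIs of Fabp4 and 1163 of the 2334 of Ctsl. In the GFP- library 28 of the 36 Fabp4 UMIs lay in 1 cell. Removing the 7 cells turned the sign of the median of 11 of 25 lists, the macrophage and lysosome lists among them. Some matrix genes did pass it. Mmp12 was detected in 12 of 75 GFP+ members and 1 of 57 GFP- members, with a ratio of 26.9 over the sums and 2.43 with cells weighted equally. Fn1, which encodes fibronectin, was lower at 88.1 CPM against 344 in all and 237 in unmixed GFP- members, with other GFP- cells at 347.

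**Figure D5:**
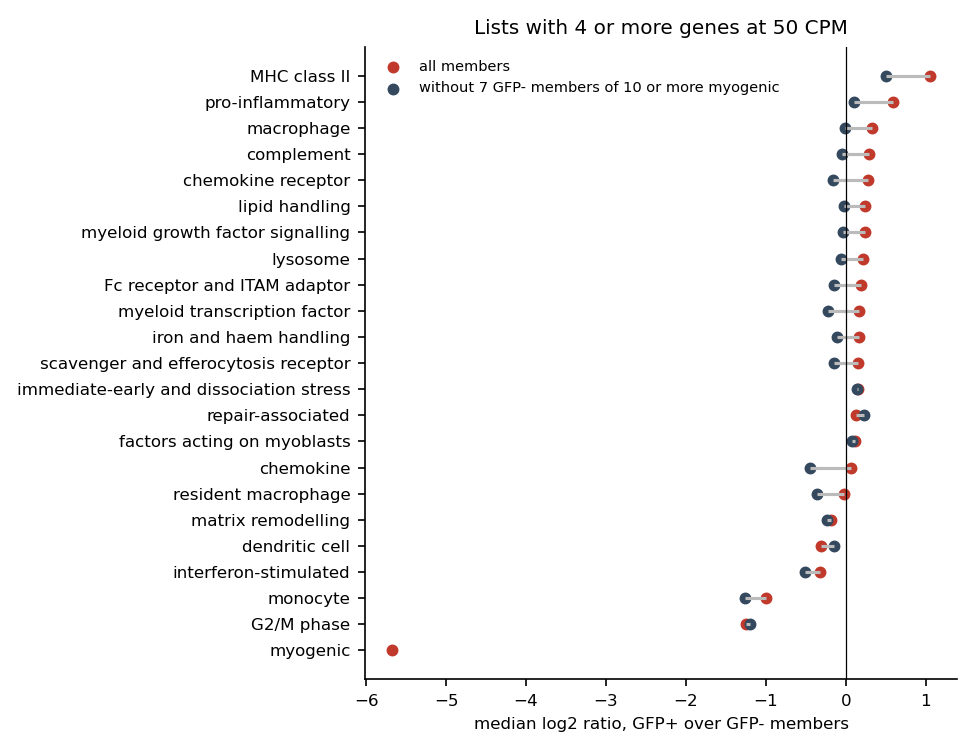
Median log2 ratio of GFP+ to GFP- members for each list with 4 or more genes at 50 CPM, over all members (red) and without the 7 GFP- members of 10 or more myogenic UMIs per 10000 (dark). MHC class II moves from 1.06 to 0.50, the monocyte list moves further down to -1.26, and the myogenic list at -5.68 has no dark point because 0 of its genes reach 50 CPM without those cells.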

How the data were processed

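The deposited matrices hold raw counts (UMIs per gene and barcode) for 2 mouse libraries and 32286 features, written by Cell Ranger 4 per the file headers. The submitters' processing notes name Cell Ranger, Seurat and mm10. No label or file header names the annotation release. Kept barcodes had 1000 or more UMIs, 500 or more genes and a mitochondrial share of 10% or less, and members were taken by 4 genes at 10 per 10000 UMIs. The members and the 33 gene lists (336 of 337 genes matched, of which some are not reported here by name) were chosen with earlier results of these data known. Member counts were summed per library, divided by the library's member total and compared as ratios with exact conditional intervals. With 1 library per group there was no test, and genes were named by size: at least 50 CPM in 1 library and a ratio of at least 2 or at most 0.5, with the 20 leading genes over other cells at 200 CPM and the 12 highest and 12 lowest ratios at 100 CPM. A group at 0 was given a floor of 3 counts over the group. Shares of cells were taken after thinning to 3000 UMIs. Members were clustered without integration (scanpy 1.11.5, 2000 variable genes, 20 components, 15 neighbours, Leiden resolution 0.6). Scrublet ran at an expected rate of 0.08, and no cell was removed. TMM factors came from edgeR 4.0.16. The ratio and size rule were tested on simulated sums with counting error only and no variation between cells. The changed genes were taken from those at 100 CPM or more. All 50 genes changed 2.5-fold and all 50 changed 4-fold were called, and 5 of 2730 unchanged genes. In the data single cells can hold most UMIs of a gene, so these counts give no error rate for the calls. Alternatives changed the score, mitochondrial and UMI limits, doublets, scaling, weighting, filter and thinning. Weighting cells equally without the members of 10 or more myogenic UMIs per 10000 was added after seeing the data.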

Additional observations from a re-analysis of the deposited data

Results flagged for a closer look

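Barcodes that the filters had removed also held the rule genes. Of the GFP+ barcodes above the mitochondrial limit, 4 of 32 had 10 or more rule UMIs per 10000. Barcodes of at least 500 but under 1000 UMIs and a mitochondrial share of 10% or less were used in no comparison. Of these, 7 of 21 GFP+ and 12 of 97 GFP- barcodes reached that level. At this depth a single rule UMI is enough to reach it. Each is listed because signal appeared in data outside the comparisons. Empty droplets held the rule genes at 40.1 per 10000 in the GFP+ and 8.93 in the GFP- library, and their part in these barcodes was not tested.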

How the results depend on the processing

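Of the values that answer a comparison, 61 of 74 alternatives left them within the stated limits and 13 moved them. The GFP- share of members was 2.76% at a mitochondrial limit of 5%. Genes higher and lower in GFP+ members numbered 177 and 153 with TMM factors, 624 and 2173 with no filter on CPM and 57 and 84 at 100 CPM. Without the 7 GFP- cells of myogenic UMIs 117 were lower. Without thinning, the share of GFP+ members with a UMI was 82.7% for Cd74, 17.3% for Mki67 and 69.3% for Il1b, and that of GFP- members 75.4% for Cd74 and 12.3% for Mki67. Ratios of single genes turned in 10 cases. At a score of 50 per 10000 these were Ccnb2 (2.03), Ncoa7 (0.912), Il1r2 (2.74) and Ctsk (1.82). Without the 7 cells it was Col1a1 (2.56), and with cells weighted equally Ccnb2 (1.38). With both changes, added after seeing the data, they were Col1a1 (4.03), Chrna1 (1.71), Cdh15 (1.59) and Ccnb2 (1.36). Chrna1 had 0 UMIs in GFP+ members, so its ratio there came from the floor of 3 counts. Col1a1 and Cdh15 had only 7 and 2 UMIs in GFP+ members, so their ratios show no clear change of direction. Except where stated, the cause was not tested. No paired analysis was possible because each fraction had 1 library, and for the same reason no replicate could be left out.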

Other observations

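Some genes that usually mark lymphocytes were found in members without the defining genes of those cells. Cd4 had 47 UMIs in 12 GFP+ members and 7 UMIs in 7 GFP- members, while Cd3e, Cd3d and Cd3g had 0. Ighm, the heavy chain gene of IgM, had 62 UMIs in 27 GFP+ members and 69 in 24 GFP- members, while Cd79a and Pax5 had 0. A GFP- member of 6164 UMIs held 23 of the 26 GFP- UMIs of Ccr7, with 18 of Fscn1, a gene of migrating dendritic cells, and 0 of Lyz2 and C1qa. It entered by the other rule genes.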
